A study of Rattus norvegicus with 6 samples.

Results

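The deposited table of these heart muscle cells held 1627 gene models with no Ensembl rat identifier (ENSRNOG). Their identifiers consist of a word for a model outside the annotation and a number, with no gene name and no gene class. They are written here as N and that number (N494). The 1166 models described here were selected on level: they had at least 0.5 FPKM (fragments per kilobase of exon, scaled to the depth of the library) in at least 3 of the 6 libraries, out of 14808 rows of the table that met the same limit and 34510 rows in all. That they reached this level is therefore no result. Cultured neonatal rat ventricular cardiomyocytes were sequenced as poly(A) RNA in 2 groups of 3 libraries, titled Bgal and Trim28. By the series' design text, an adenovirus carrying TRIM28 was put on the cells. The name Bgal is not expanded in the labels, which also give neither the virus of that group nor a dose, a time, a batch or separate cultures, so p-values measure the spread between libraries, which may be technical.

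An unannotated gene model is a place where sequenced fragments were assembled into a transcript that the annotation does not list. Such models commonly include RNAs started backwards from the promoter of a known gene, long non-coding RNAs, copies of retroelements, and ordinary genes that an annotation or an assembly had missed. TRIM28, also called KAP1, is a corepressor that KRAB zinc finger proteins bring to DNA, and it is best known for silencing endogenous retroviruses and other retroelements.

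The sequence of the models could not be read, because no source used here names the build of their coordinates and no genome was used. What can be shown is the DNA between some of them and their closest annotated neighbour. Of the models, 185 lay head to head with an annotated gene, meaning on opposite strands with the starts facing each other, at no more than 1 kb, and 131 of these had starts no more than 250 bases apart. The stretch of 250 bases before the start of such a gene is then also the start region of the unannotated RNA. Below are the 250 bases before the RefSeq start of 4 annotated genes whose head to head model rose together with them. They are the 4 with the largest difference among the 13 pairs at 250 bases or less in which both partners rose or both fell and the gene matched 1 RefSeq promoter, from rat build GRCr8. RefSeq starts may differ from those of the deposited table. Capitals mark 3 motifs, found by letters alone on both strands, so that the reverse complement is marked too. These are the GC box, spelled GGGCGG, the CCAAT box, which is spelled as it is named, and the TATA box, spelled TATAAA.

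Bmp6 (partner of N639), chr17:26675262-26675511, strand -: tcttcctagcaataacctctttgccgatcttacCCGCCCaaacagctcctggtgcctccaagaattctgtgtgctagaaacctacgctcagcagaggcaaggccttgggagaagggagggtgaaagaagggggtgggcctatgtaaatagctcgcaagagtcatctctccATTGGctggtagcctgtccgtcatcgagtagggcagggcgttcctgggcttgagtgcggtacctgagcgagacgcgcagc
Ptpn9 (partner of N1431), chr8:66287673-66287922, strand +: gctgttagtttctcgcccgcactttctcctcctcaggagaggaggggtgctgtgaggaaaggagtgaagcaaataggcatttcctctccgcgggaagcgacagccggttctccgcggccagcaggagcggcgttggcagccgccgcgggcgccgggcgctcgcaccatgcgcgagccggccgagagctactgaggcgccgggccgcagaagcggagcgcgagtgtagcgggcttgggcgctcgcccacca
Cdc42ep3 (partner of N1202), chr6:21462831-21463080, strand +: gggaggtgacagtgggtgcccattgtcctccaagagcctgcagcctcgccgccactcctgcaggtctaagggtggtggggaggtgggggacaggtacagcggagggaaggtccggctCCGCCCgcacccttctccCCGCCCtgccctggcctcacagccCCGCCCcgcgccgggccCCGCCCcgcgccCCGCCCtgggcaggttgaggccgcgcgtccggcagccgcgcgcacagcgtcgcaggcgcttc
Prrx1 (partner of N419), chr13:78204074-78204323, strand -: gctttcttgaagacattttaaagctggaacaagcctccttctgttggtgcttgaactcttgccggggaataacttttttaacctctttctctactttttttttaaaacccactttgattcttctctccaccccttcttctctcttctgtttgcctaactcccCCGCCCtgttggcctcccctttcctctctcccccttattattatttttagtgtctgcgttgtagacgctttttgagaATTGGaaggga

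The 4 stretches differ in make-up. Cdc42ep3 held 5 GC boxes and 75.6% G or C, Bmp6 and Prrx1 each held 1 GC box and 1 CCAAT box, and Ptpn9 held none of the 3 motifs. None of the 4 held a TATA box. Among the 100 partners at 250 bases or less that matched RefSeq promoters, 60% held a GC box, 37% a CCAAT box and 3% a TATA box. Over the 10455 promoters of tested annotated genes the shares were 58.3%, 34.9% and 6.70%, and over all 33469 RefSeq promoters they were 30.5%, 34.0% and 12.9%. The median share of G and C was 60.4% for the partners and 60.4% for the tested annotated genes. A match is a description of letters and not of a bound site.

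Several models lay on the same strand directly before a microRNA gene, where the microRNA's own primary transcript would run. The mature sequences, from RefSeq on GRCr8, are shown to identify these neighbours, with bases 2 to 8, the seed that pairs with target RNAs, in capitals. The libraries measured the models and not the mature microRNAs.

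rno-miR-34a-5p (N1153, 1 base apart): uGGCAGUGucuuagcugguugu
rno-miR-322-5p (N1605, 1 base apart): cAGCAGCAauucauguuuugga
rno-miR-23a-3p (N744, 43 bases apart): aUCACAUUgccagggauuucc
rno-miR-143-3p (N729, 2200 bases apart): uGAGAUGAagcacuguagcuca

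These 4 seeds all differ. The microRNA gene's own row of the table is named by its symbol only, and a distance here runs between the nearest ends of 2 rows, with 1 meaning that they touch. Among microRNA genes with a Mir symbol, Mir30b, with N1367 after it on the same strand, and Mir3561, with N1354 before it, were the other same-strand cases within 5 kb. N494, described with the largest rises, touched a row of class miRNA that has no such symbol.

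The libraries held 26146166 to 34593292 fragments counted in genes, recovered from the deposited values. Trim28 itself was at 81.6, 87.8 and 77.6 FPKM in the Bgal libraries and at 2923, 2890 and 980 FPKM in the Trim28 libraries, so the titles matched the gene they name. Of the 10 cardiomyocyte markers examined, all reached the level limit, with a summed level of 20312 to 22584 FPKM in Bgal and 25146 to 26605 FPKM in Trim28. Markers of other heart cells also moved with the groups: 7 of 8 fibroblast genes (summed 434 to 453 FPKM against 773 to 837), 5 of 6 mural cell genes (745 to 998 against 1591 to 1681) and 6 of 6 leukocyte genes (26.8 to 27.4 against 63.6 to 65.2) rose. Of the cardiomyocyte markers 5 rose and 3 fell. Of 6 endothelial markers 2 reached the level limit (summed 9.73 to 10.5 against 8.32 to 9.28 FPKM, 1 rose and 1 fell), and of 4 erythroid markers 1 did (0.287 to 1.15 against 0.694 to 1.96 FPKM, not passed). In bulk RNA a change in the number of cells of a type and a change in RNA per cell cannot be told apart. The part of these cells in the differences below was not tested.

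The models were more weakly expressed than annotated genes, and most lay within 5 kb of one. Their median level over the 6 libraries was 1.47 FPKM, against 9.38 FPKM for the 13642 annotated genes past the limit. Their exons summed to a median of 1538.5 bases (range 200 to 64484) against 2195 bases, and 1066 of the 1166 were spliced. The median span on the chromosome was 4795 bases, against 17993.5 bases for annotated genes. In a single library a model had a median of 82 fragments. Together the models took 0.982% to 1.12% of all FPKM.

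Every numbered chromosome, X and Y held at least 1 model. Chromosome 1 held most (136), chromosome Y held 1 (N1627), and 21 models lay on 21 sequences outside the chromosomes. Relative to annotated genes past the limit, chromosome 17 was the richest, with 15.8 models per 100 such genes. Chromosome X had 5.5 and chromosome 20 had 5.6 per 100.

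The nearest annotated gene was at a median of 3688.5 bases from a model, and at 2456 bases from an annotated gene past the limit. By position, 8 models overlapped an annotated gene, 619 (53.1%) lay within 5 kb of one, 527 lay farther, and 12 were on sequences without one. Of the annotated genes past the limit, 23.6% overlapped another annotated gene and 37.7% lay within 5 kb of one without overlap. Within 1 kb of an annotated gene lay 372 models, of which 185 were head to head, 134 tail to tail, 26 downstream and 27 upstream on the same strand. The plot of distances shows that head to head and tail to tail models make up most of the models near an annotated gene. In the head to head pairs within 1 kb the starts were a median of 123 bases apart. Among the models themselves, 67 overlapped another one on the other strand. The libraries marked the strand, but no source used here says how strand was used in counting, so fragments of overlapping rows on opposite strands may not be separated.

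**Figure D1:**
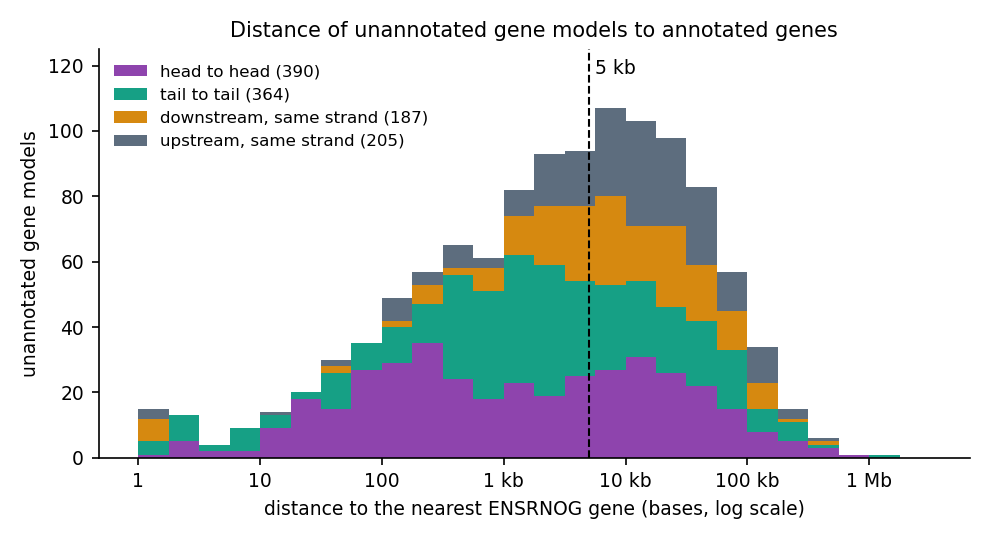
Number of unannotated gene models (vertical axis) by distance to the nearest annotated gene in bases (horizontal axis, log scale), with colours for orientation and a dashed line at 5 kb. Over all distances 390 models were head to head and 364 tail to tail, and 619 models lie to the left of the line without overlapping a gene.

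At the edge of the level limit the third-highest library decided. It was 0.501 FPKM in N902, 0.502 in N1424 (Sorl1 match) and 0.503 in N42 (ZNF431 match), just inside, and 0.494 in N387, 0.491 in N898 and 0.487 in N521, just outside. Of the 461 models left out, 361 were above 0 in at least 1 library and 100 were at 0 in all. Without any limit, 14 of these 361 rose and 9 fell, beside 11.7% and 11.6% of the 23443 rows then tested.

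Between the groups, 175 models rose in the Trim28 libraries, 188 fell and 803 did not pass (limma on log2(FPKM + 1), Benjamini-Hochberg adjusted p under 0.05 over all 14808 rows). The 31.1% of models that passed compare with 41.2% of all rows tested, in which 20.1% rose and 21.1% fell. Under the alternatives the share of all rows that passed was 40.8% with a pseudocount of 0.1, 23.4% without the level limit, 45.0% with a limit of 1 FPKM, 41.9% with limma-voom, 40.1% without the trend and 32.3% to 38.1% with 1 library left out. The median difference was -0.06 on the log2(FPKM + 1) scale for the models and -0.02 for all rows. The groups did not overlap in 506 models (43.4%), beside 53.8% of all rows tested, and they did not overlap in 360 of the 363 that passed. A model could meet the level limit through the 3 libraries of 1 group alone, and then had to differ. This held for 30 models met through Bgal (27 fell) and 31 met through Trim28 (26 rose). Of the 1105 met through both groups, 149 rose and 161 fell.

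The share that passed was highest at high level in both kinds of row. Below 1 FPKM 25.8% of models and 19.2% of annotated genes passed, and from 1 to 2 FPKM 25.1% and 29.9%. From 2 to 5 FPKM the shares were 34.4% and 35.1%, and from 5 to 10 FPKM 41.96% and 38.45%. At 10 FPKM and above they were 58.0% and 52.6%. The balance of rises and falls changed with level. Below 1 FPKM 9.82% of models rose and 15.95% fell, against 13.97% and 5.27% of annotated genes. At 10 FPKM and above 37.04% of models rose and 20.99% fell, against 21.54% and 31.10% of annotated genes. The 2 kinds of row were not tested against each other. Differences of at least 1 on the log2 scale among rows that passed were rare. They were reached upward by 18 models (1.54%, against 1.65% of all rows) and downward by 24 models (2.06% against 1.16%). These counts include models that met the level limit through 1 group alone, so that their direction was set by the choice. Among them are N112, N733 and N497 upward and N952, N1501, N1597, N1130 and N579 downward. The 2 counts were not made without such models.

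**Figure D2:**
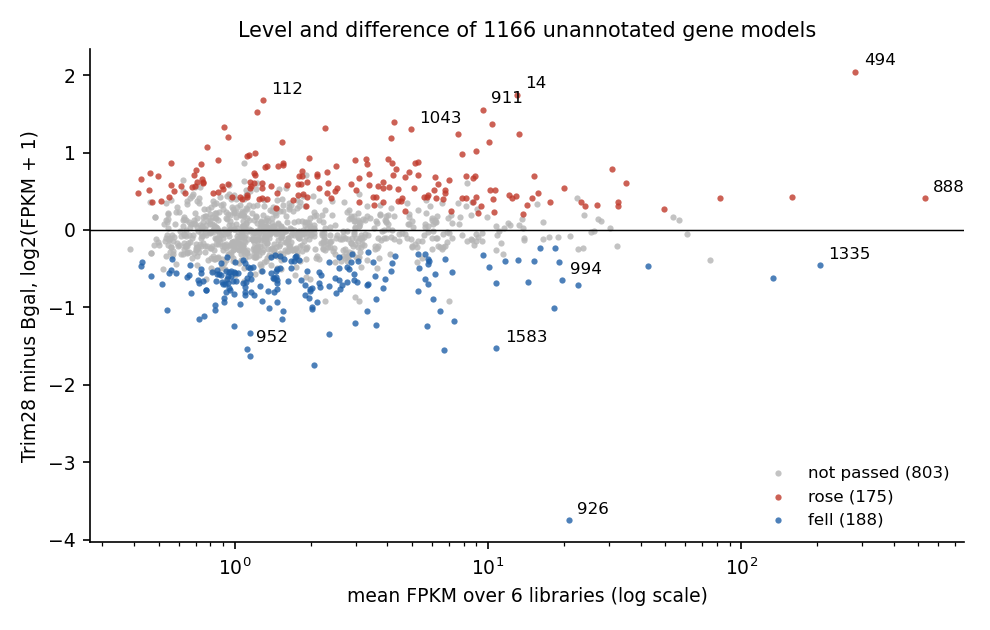
Difference between the groups on the log2(FPKM + 1) scale (vertical axis) against mean FPKM over 6 libraries (horizontal axis, log scale), 1 point a model, with 175 models that rose in red, 188 that fell in blue and 803 that did not pass in grey. Numbers give the identifier of models described in the text, N926 lying lowest at -3.74.

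The summed level of all models was 4926, 4997 and 5248 FPKM in the Bgal libraries and 5386, 5572 and 5446 FPKM in the Trim28 libraries. A single model, N494, made up most of that gap. Without it the sums were 4868, 4879 and 5073 FPKM against 4984, 5024 and 5053 FPKM, which overlapped. No test was made of this sum.

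Of the 10 most abundant models, 6 matched a known protein and 4 (N494, N944, N1342 and N373) did not. The deposited table gives each model its best protein match, and 297 models had one. Highest of all was N888 on chromosome 20 (19483978 to 19485845), which matched chain 4 of NADH dehydrogenase, a subunit that mitochondrial DNA encodes. It had 528, 488 and 357 FPKM in Bgal and 556, 629 and 618 FPKM in Trim28. The groups did not overlap, and it rose by 0.41 ± 0.14 (SE) on the log2(FPKM + 1) scale (limma adjusted p = 0.0488, range 0.0199 to 0.128 over alternatives). That call was lost without Bgal replicate 2, without each of the 3 Trim28 libraries, without the intensity trend, without the level limit and with the replicate number as a block. The annotated mitochondrial gene ND4 was at 264, 199 and 242 FPKM against 263, 240 and 319 FPKM and did not pass (adjusted p = 0.217). Fragments of near-identical copies may be split between these 2 rows.

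Other abundant models matched proteins of the ribosome, of calcium signalling and of the ATP synthase. The model N1335 (chr7:3051672-3053960, strand -) matched ribosomal protein eS26. It was at 233, 236 and 238 FPKM in Bgal and 177, 171 and 169 FPKM in Trim28. The groups were well apart, and it fell 1.37-fold in mean FPKM (log2 difference -0.45 ± 0.04, adjusted p = 0.000203). The model N1265 matched ATP5MPL, a small mitochondrial proteolipid of the ATP synthase, and had 142, 160 and 184 FPKM against 108, 102 and 104 FPKM. It fell 1.55-fold (log2 difference -0.62 ± 0.09, adjusted p = 0.00158). In the other direction N1238, which matched calmodulin, the calcium sensor of muscle and other cells, had 134, 131 and 141 FPKM against 191, 193 and 165 FPKM. It rose 1.35-fold (adjusted p = 0.00258). Matches to ribosomal proteins eL38 (N228, 62.6, 103 and 92.8 against 65.2, 62.4 and 65.2 FPKM) and eL33 (N351, 59.4, 45.1 and 56.5 against 57.9, 41.8 and 81.0 FPKM) overlapped between groups and did not pass. Ribosomal protein genes have many processed copies, so their fragments may be shared with other loci.

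The longest model matched titin. Titin is the giant elastic protein that spans the sarcomere from Z-disc to M-band, and the annotated rows of the table had no gene of that name. The model N994 on chromosome 3 (63606856 to 63765077, strand -) had 64484 bases of exon and matched mouse titin, with fibronectin type III domains. It took 154779 fragments over the 3 Bgal libraries and 80192 over the 3 Trim28 libraries. In FPKM it was at 20.5, 22.1 and 29.9 in Bgal and at 12.9, 14.4 and 17.6 in Trim28. The lowest Bgal library was above the highest Trim28 library, and the model fell 1.61-fold (log2 difference -0.65 ± 0.16, adjusted p = 0.0134, range 0.00139 to 0.0443 over alternatives). On the other strand inside it lay N936, which did not pass (adjusted p = 0.779). The nearest annotated gene, the protein-coding AABR07052585.2 on the same strand at 38392 bases, went the other way, from 423 ± 38.4 FPKM to 504 ± 26.0 FPKM (SD, n = 3 libraries each, limma adjusted p = 0.0278). Whether that row is itself part of the titin gene was not tested. The fall is therefore that of N994 and may not hold for all titin RNA.

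Titin was one of many matches whose name the table's annotated rows lacked. A missing name does not show a missing gene, since an annotated row may carry the gene under another name, as ND4 does for the match Mtnd4 of N888. Of the 182 models with a match to a protein other than retroelement or zinc finger proteins, 74 matched a gene whose name no annotated row bore. For 69 of these the nearest named genes on both sides could be found on 1 chromosome of the RefSeq annotation of GRCr8. In 49 of the 69 RefSeq placed a gene of the matched name or synonym between the same 2 neighbours. The median number of RefSeq genes between the neighbours was 7. Examples are Ttn between Plekha3 and Ccdc141, Rps26 between Erbb3 and Ikzf4, Rpl38 between Sdk2 and Ttyh2, and Kcnd2 between Ankrd7 and Tspan12. Of the 49, 10 rose and 7 fell, with a median difference of -0.05, beside the 20.1% and 21.1% of all rows given above. Of the 108 models whose matched name had an annotated row, 88 could be placed and 43 had that gene between the neighbours.

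Among these 49 the matches to Pbld2 and to the ion channel gene Kcnd2 had the largest differences. Kcnd2 encodes Kv4.2, a pore subunit of the fast transient outward potassium current of ventricular muscle. The model N1043 (chr4:48308294-48817717, strand +) was at 2.50, 2.64 and 2.22 FPKM in Bgal and 7.65, 7.95 and 6.87 FPKM in Trim28. It rose 3.05-fold with no overlap (log2 difference 1.30 ± 0.09, adjusted p = 0.000103). The match to Pbld2, N911, had 4.65, 3.39 and 5.08 FPKM against 13.9, 17.4 and 12.9 FPKM and rose 3.37-fold (adjusted p = 0.000319). The match to the histone acetyltransferase p300 (Ep300), N1319, had 21.1, 21.3 and 21.7 FPKM against 26.6, 27.8 and 25.8 FPKM. It rose by a smaller amount, 1.25-fold (adjusted p = 0.0023). The match to Peg10, a gene derived from a retrotransposon and expressed from the paternal copy, was N1042, with 4.61, 5.50 and 4.15 FPKM against 7.36, 6.81 and 6.47 FPKM. It rose 1.45-fold (adjusted p = 0.0106), as did its annotated neighbour Sgce (adjusted p = 0.00268).

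Other rises in this group of 49 were the matches to T-kininogen (N332), Pilra (N367), Samd9l (N1084), Ints1 (N365) and Sorl1 (N1424 and N1425). All 4 calls for N1084, N365, N1424 and N1425 were lost without Bgal replicate 1. The call for N1084 was also lost without Bgal replicate 2 or Trim28 replicate 1, and that for N365 without Bgal replicate 3 or any Trim28 replicate. That for N1424 was lost without Bgal replicate 2 or 3 or Trim28 replicate 1 or 3, and that for N1425 without Bgal replicate 3 or Trim28 replicate 2 or 3. The N1424 call was also lost with a pseudocount of 0.1 and without the level limit. Beside titin, Rps26 and Atp5mpl, the falls were the matches to Pigbos1 (N1403), Cfap20dc (N515), Hook3 (N574) and Hgsnat (N575). The call for N1403 was lost without any 1 of Bgal replicate 1, 2 or 3 and of Trim28 replicate 1 or 3. That for N574 was lost without Bgal replicate 2 or 3 or Trim28 replicate 1 or 2, and that for N575 without Trim28 replicate 1 or 3. The model N515 met the level limit through Bgal alone and N1424 through Trim28 alone, so that their direction was set by the choice.

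Of the remaining matches, N1164 matched RIG-I, the cytosolic sensor of viral RNA. Between its neighbours Aco1 and Topors RefSeq placed a gene spelled Rig1, which the count by name or synonym did not take. The model had 4.13, 3.79 and 5.52 FPKM in Bgal and 8.93, 8.87 and 5.75 FPKM in Trim28. The lowest Trim28 library was just above the highest Bgal library, and the model rose by 0.68 ± 0.18 on the log2 scale (adjusted p = 0.0198). That call was lost without Bgal replicate 1 or 2 and without Trim28 replicate 1 or 2. The match to Tnfrsf23, N172, a decoy receptor of the TNF receptor family, had 11.6, 12.9 and 11.2 FPKM against 7.61, 8.19 and 8.93 FPKM and fell 1.44-fold (adjusted p = 0.00306).

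Some models sat at the end of an annotated gene on its own strand and bore its name. The model N330 lay 2949 bases downstream of P3h2, which encodes a prolyl 3-hydroxylase of collagen, and matched it. It had 0.471, 0.508 and 0.423 FPKM against 1.89, 1.86 and 2.02 FPKM and rose 4.12-fold (adjusted p = 0.000376). P3h2 rose from 11.2, 12.7 and 10.2 FPKM to 27.8, 31.6 and 28.0 FPKM. Such a model may be part of the annotated gene's own RNA, which was not tested. Counted over either strand and any orientation, 20 models had their nearest annotated gene as their protein match.

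Among the 10 largest rises N911 and N1043, described above, matched a protein and the others did not. Of all 1166 models 297 had a match. The model N494 on chromosome 14 (46329444 to 46329995, strand -, 531 bases) touched a row of class miRNA that was at 0 in all libraries. It had 58.7, 117 and 175 FPKM in Bgal and 402, 548 and 393 FPKM in Trim28. The Bgal libraries were widely spread, every Trim28 library was above them, and the model rose 3.83-fold (log2 difference 2.04 ± 0.36, adjusted p = 0.00358, range 0.000142 to 0.0155 over alternatives). A 5.8S ribosomal RNA row lay 316171 bases away on that chromosome.

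Near that ribosomal row stood 4 other models. The model N465 touched it, and fell from 21.6, 27.6 and 36.1 FPKM to 16.1, 19.1 and 15.1 FPKM (adjusted p = 0.0148). The model N497, 12739 bases away, had 4 fragments in all Bgal libraries together and 121 in Trim28. The model N498, on the strand opposite to N465, did not pass. The model N499 had 0.111, 0.200 and 0.240 FPKM against 0.517, 0.828 and 0.587 FPKM. Both N497 and N499 met the level limit through Trim28 alone, so that their direction was set by the choice.

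On chromosome 1 a like pair of rises stood beside another 5.8S row. The model N112, 9198 bases from it, had 6 fragments over the Bgal libraries and 147 over the Trim28 libraries. The model N113 had 16 and 138 fragments. Both met the level limit through Trim28 alone, as did N733 (19 and 236 fragments, chromosome 19). Ribosomal DNA is present in many near-identical copies, so the place of such fragments is uncertain.

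The model N14 (chr1:31866798-31868687, strand +) lay between Cep72 and Tppp. It had 4.88, 6.36 and 4.94 FPKM in Bgal and 20.0, 24.7 and 17 FPKM in Trim28. It rose 3.81-fold (log2 difference 1.75 ± 0.14, adjusted p = 0.000183), while Cep72, its nearest annotated gene at 2170 bases, did not pass (adjusted p = 0.237). The unspliced N1193 lay tail to tail with Hspb7, which encodes a small heat shock protein of heart muscle, at 733 bases. It had 1.74, 1.86 and 2.04 FPKM against 7.48, 6.73 and 5.68 FPKM and rose 3.53-fold (adjusted p = 0.000148). Hspb7 rose less, by 0.32 on the log2 scale (adjusted p = 0.00716).

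**Figure D3:**
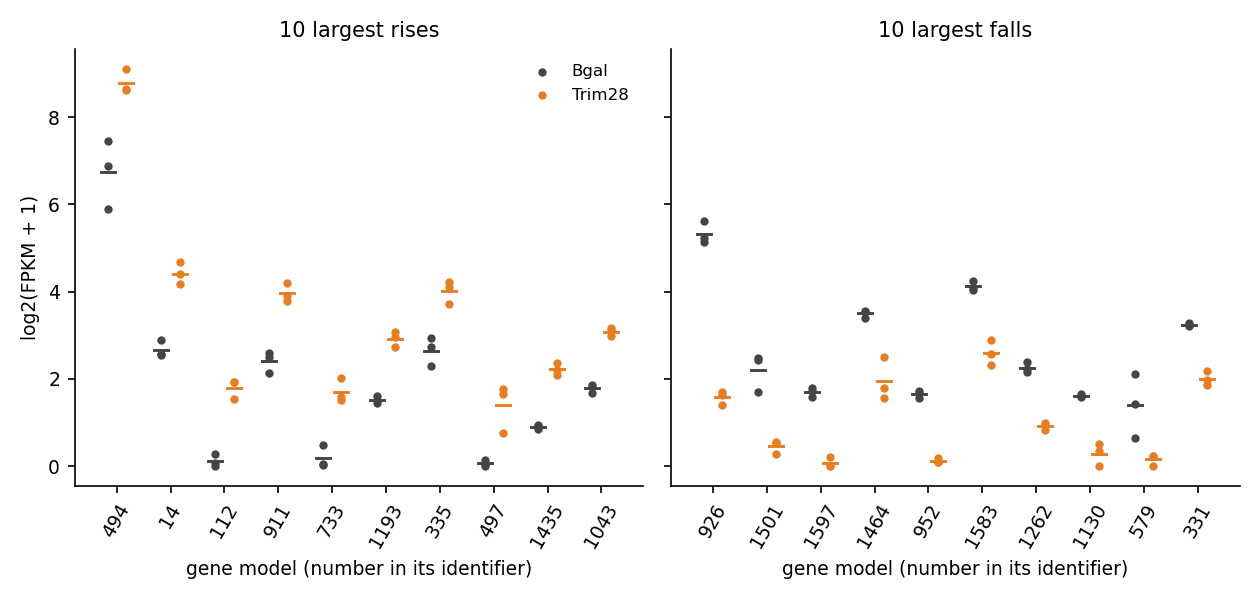
Level as log2(FPKM + 1) (vertical axis) of the 10 models with the largest rise (left) and the 10 with the largest fall (right) among those that passed, 1 point a library and a bar at the mean, Bgal in grey and Trim28 in orange. The groups do not overlap in any of the 20, a condition of the choice.

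The largest fall of any row was that of N926. It spanned 12715182 to 12734852 of chromosome 3 on the plus strand with only 216 bases of exon, between Lmx1b and Mvb12b, and had no protein match. In Bgal it was at 36.4, 48.1 and 34.4 FPKM and in Trim28 at 1.66, 2.12 and 2.26 FPKM. The fall was 19.7-fold in mean FPKM (log2 difference -3.74 ± 0.14, adjusted p = 1.42e-05), and rested on 837 fragments in Bgal against 36 in Trim28. The nearest annotated gene, Lmx1b, stood 28313 bases away and was below the level limit.

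Near Meis2, a homeobox gene of heart development, 2 models were lower in Trim28. The model N951 had its start 42 bases from that of Meis2 and fell from 3.30, 3.57 and 4.26 FPKM to 2.00, 1.96 and 2.59 FPKM (adjusted p = 0.00852). The model N952, farther out at 16742 bases, was at 2.22, 1.94 and 2.29 FPKM in Bgal and at 0.0695, 0.140 and 0.0601 FPKM in Trim28. It had 993 fragments against 34 and met the limit through Bgal alone, so that its direction was set by the choice. Meis2 fell from 27.7, 28.6 and 30.2 FPKM to 22.0, 21.7 and 21.0 FPKM.

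The match to beta-taxilin (Txlnb), N1583, stood on an unplaced sequence with no annotated gene. It had 17.9, 15.4 and 16 FPKM in Bgal and 6.40, 3.97 and 4.99 FPKM in Trim28 and fell 3.21-fold (adjusted p = 0.000269). The model N1464 lay between Slc40a1, the cellular iron exporter gene, and Asnsd1. It had 10.6, 10.8 and 9.59 FPKM against 1.97, 4.63 and 2.46 FPKM and fell 3.42-fold (adjusted p = 0.00146), while Asnsd1 did not pass.

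Further large falls were N331 between Lpp and Bcl6 (2.80-fold, adjusted p = 0.000148) and N1262, which fell 4.26-fold beside an annotated long non-coding RNA that fell too. The models N1501, 15209 bases from Mir30a (257 and 22 fragments), N1130 beside Atp6v1g1 (83 and 8), N1597 on chromosome X (56 and 1) and N579 (38 and 2) met the limit through Bgal alone. The call for N579 was lost without the level limit, without Bgal replicate 2 and without Trim28 replicate 2.

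Where a model passed, its head to head neighbour within 1 kb passed in the same direction or did not pass. Of the 178 pairs within 1 kb whose annotated gene was also tested, 23 models rose and 16 of their neighbours rose, none falling. Another 27 models fell, and 14 of their neighbours fell, none rising. Of the 178 neighbours 43 rose and 44 fell in all, and of all rows tested 20.1% rose and 21.1% fell. The differences of the 2 partners had Pearson r = 0.61 and Spearman rho = 0.52 across the 178 pairs, as a description, since the partners share libraries. On recovered reads with limma-voom 34 pairs passed the same way and 1 the opposite way, against 30 and 0 here.

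**Figure D4:**
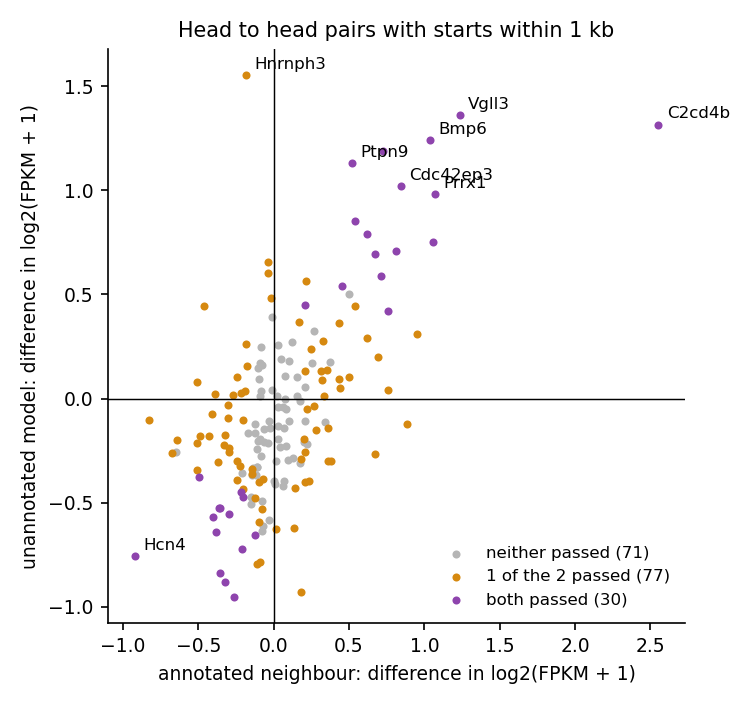
Difference of the unannotated model (vertical axis) against that of its annotated head to head neighbour (horizontal axis), both Trim28 minus Bgal in log2(FPKM + 1), for 178 pairs with starts within 1 kb. The 30 pairs in which both passed (purple) lie in the lower left and upper right, and names are those of the annotated gene.

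Pairs in which both partners rose are described first. Across from Bmp6, a bone morphogenetic protein, N639 (chr17:27112957-27113638) had 9.22, 6.63 and 6.69 FPKM in Bgal and 19.9, 18.8 and 18.2 FPKM in Trim28. It rose 2.52-fold (adjusted p = 0.000294), and Bmp6 rose from 7.91, 9.69 and 7.61 FPKM to 20.6, 17.3 and 16.9 FPKM. Across from Vgll3, a cofactor of TEAD transcription factors, N335 had 5.62, 6.65 and 3.88 FPKM against 16.3, 17.5 and 12.1 FPKM. Neither partner overlapped between groups, and Vgll3 rose by 1.23 on the log2 scale beside 1.36 for the model.

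Across from Cdc42ep3, an effector of the small GTPase CDC42, N1202 had 4.36, 5.98 and 6.54 FPKM against 11.7, 13.9 and 11.4 FPKM. The starts were 10 bases apart, and both rose (adjusted p = 0.00123 and 0.000114). Across from the phosphatase gene Ptpn9, N1431 had 5.56, 6.31 and 5.92 FPKM against 14.9, 13.2 and 14.4 FPKM. It rose by 1.13 on the log2 scale and Ptpn9 by 0.52. Across from Prrx1, a homeobox gene of mesenchymal cells, N419 rose 2.18-fold with Prrx1 rising by 1.07 on the log2 scale. Prrx1 marks cells of the fibroblast lineage, whose markers rose as given above, and the part of cell numbers was not tested.

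Other pairs that rose together were those of C2cd4b (N1435, 4.21-fold), Irs2 (N612), Adamts5 (N300), Fgf12 (N354) and cardiac actin Actc1. The Actc1 partner N949, 746 bases away, had 10.9, 10.5 and 12.7 FPKM against 19.1, 17.8 and 20.0 FPKM. Its difference of 0.69 was close to the 0.67 of Actc1, although Actc1 itself was at 4740 to 9206 FPKM.

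Pairs that fell together included those of Hcn4 and Rbm20. Across from Hcn4, the pacemaker channel gene, N1432 started 30 bases away and itself matched Hcn4. It had 3.82, 3.76 and 3.01 FPKM against 1.52, 1.59 and 1.91 FPKM and fell 2.11-fold (adjusted p = 0.00191), beside a fall of 0.92 on the log2 scale in Hcn4. A model that matches its own neighbour may not be separate from that gene, which was not tested. Across from Rbm20, the splicing factor that acts on titin, N190 had 2.87, 2.40 and 2.82 FPKM against 1.25, 0.835 and 1.14 FPKM. It fell 2.51-fold (adjusted p = 0.00146), and Rbm20 fell from 75.3, 78.9 and 79.0 FPKM to 60.8, 60.1 and 60.3 FPKM. Falls in both partners were also found at Vps53 (N210), Dguok (N1058), Gabarapl1 (N1108) and Nol10 (N1250).

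Not every pair moved together. At Hnrnph3 the model N911 described above rose while its neighbour did not pass (adjusted p = 0.788). At Wnt5a N581 fell from 6.92, 7.69 and 6.33 FPKM to 3.83, 3.64 and 3.32 FPKM (adjusted p = 0.000664), and Wnt5a did not pass (adjusted p = 0.317). At Nek9 N1225 rose 1.43-fold (adjusted p = 0.0034) and Nek9 did not pass (adjusted p = 0.835). Whether the partners' differences differ from each other was not tested.

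In tail to tail pairs the ends face each other. Of 125 such pairs within 1 kb, 33 models rose (21 neighbours rose, none fell) and 8 fell (5 neighbours fell and 1 rose), with r = 0.60. Of the 125 neighbours 35 rose and 25 fell in all, and of all rows tested 20.1% rose and 21.1% fell. The 2 orientations were not tested against each other. An example at 2002 bases is N429 and the phosphatase gene Ptpn14. The model had 3.77, 4.15 and 4.42 FPKM against 11.4, 12.4 and 9.55 FPKM and rose 2.70-fold (adjusted p = 0.000191), and Ptpn14 rose by 0.84 on the log2 scale. For all 868 models with a tested neighbour, 134 pairs passed the same way and 12 the opposite way (r = 0.47). Beyond 5 kb the numbers were 35 and 3 (r = 0.35). Among the 868 pairs 124 models rose and 130 fell, and 207 neighbours rose and 204 fell.

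TRIM28's known targets were examined through the protein matches. The classes were 51 models with a retroviral match, 37 with a LINE-1 match, and 42 zinc finger models, of which 27 matched a zinc finger protein and 15 were placed by the table's transcription factor family. The deposited description gave no match for 854 models. Of these, 128 rose (14.99%) and 144 fell (16.86%), beside 20.1% and 21.1% of all rows tested. All these repeats and families have near-identical copies, so the place of single fragments is uncertain.

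Of the 51 retroviral models, 11 rose (21.6%) and 3 fell (5.88%), with a median difference of -0.06. The share that rose was near the 20.1% of all rows, but the class was weakly expressed. Its median level was 0.839 FPKM, against 8.11 FPKM for all rows. Below 1 FPKM 13.97% of annotated genes rose and 5.27% fell, and 9.82% of all models rose and 15.95% fell. The class was not tested against rows of like level. With limma-voom on recovered reads 14 rose and 11 fell, and without the intensity trend 14 rose and 7 fell. The shares of all rows that rose and fell were 20.3% and 21.7% with voom and 19.8% and 20.3% without the trend. Without Bgal replicate 1, Trim28 replicate 1 or Trim28 replicate 2, 7 rose in each case. The count of falls was 1 without Bgal replicate 1 or 2 or Trim28 replicate 1 or 2, and 0 without Bgal replicate 3. Of the 44 that met the level limit through both groups, 7 rose and 2 fell. The class sum was 57.6, 58.6 and 64.3 FPKM in Bgal and 66.5, 66.9 and 64.1 FPKM in Trim28, which overlapped. Of the 10 annotated genes of the same class, 1 rose and 3 fell, with a median of -0.20.

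Single retroviral models with a clear rise were few. The model N919 on chromosome 3, a match to a retroviral Gag-Pol polyprotein, had 1.6, 2.12 and 1.58 FPKM in Bgal and 4.30, 4.24 and 3.98 FPKM in Trim28. It rose 2.36-fold (log2 difference 0.91 ± 0.11, adjusted p = 0.000685). The model N1169 on chromosome 5 had 1.18, 1.37 and 1.46 FPKM against 3.77, 2.62 and 2.29 FPKM and rose 2.17-fold (adjusted p = 0.00772). The envelope match N1284 on chromosome 7 had 0.632, 0.807 and 0.764 FPKM against 1.83, 1.55 and 1.57 FPKM and rose 2.25-fold (adjusted p = 0.00362). In these 3 the groups did not overlap. On chromosome 18 N731 had 0.342, 0.366 and 0.563 FPKM against 2.41, 2.18 and 0.963 FPKM (adjusted p = 0.0101). Its Trim28 libraries were widely spread and all above the Bgal libraries.

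Zinc finger models mostly fell where they passed. Of the 42, 11 fell and 1 rose, with a median difference of -0.16, and 7 fell without Bgal replicate 3. The shares were 26.2% that fell and 2.38% that rose, beside 21.1% and 20.1% of all rows, and 28.6% passed in either direction, beside 41.2%. Of the 444 annotated genes of the same class, 100 fell and 48 rose, with a median of -0.11. In the models 19 had a KRAB box, the domain that binds TRIM28, and 12 matched ZNF431. The class sum was 116, 110 and 120 FPKM in Bgal and 89.0, 89.1 and 89.4 FPKM in Trim28, with no overlap and no test. The model N136, a match to ZNF543 near Aurkc, had 13.5, 13.4 and 13.7 FPKM against 6.86, 8.09 and 9.30 FPKM. It fell 1.67-fold (adjusted p = 0.00161), and Aurkc fell as well. The model N240, placed by family, had 8.14, 7.61 and 8.77 FPKM against 3.98, 3.59 and 4.33 FPKM and fell 2.06-fold (adjusted p = 0.000368). The model N296, a ZNF431 match with a KRAB box that overlaps N240 on the other strand, fell 2.28-fold (adjusted p = 0.00697). The 1 rise was ZNF469 (N756), from 2.22, 2.50 and 2.22 FPKM to 3.70, 3.61 and 3.86 FPKM.

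LINE-1 models went both ways. Of the 37, 35 matched the second open reading frame and 2 the first. In number 4 rose (10.8%) and 6 fell (16.2%), beside 20.1% and 21.1% of all rows, and 3 fell without Bgal replicate 3. Of the 6 annotated genes of the same class, 2 rose and 2 fell. The model N897 on chromosome 20, an unspliced match to the first reading frame, had 3.38, 3.16 and 4.05 FPKM against 1.99, 1.51 and 1.78 FPKM and fell 2.00-fold (adjusted p = 0.00264). The model N195 on chromosome 10 had 0.796, 0.629 and 0.798 FPKM against 1.6, 1.59 and 1.56 FPKM and rose 2.14-fold (adjusted p = 0.00399).

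**Figure D5:**
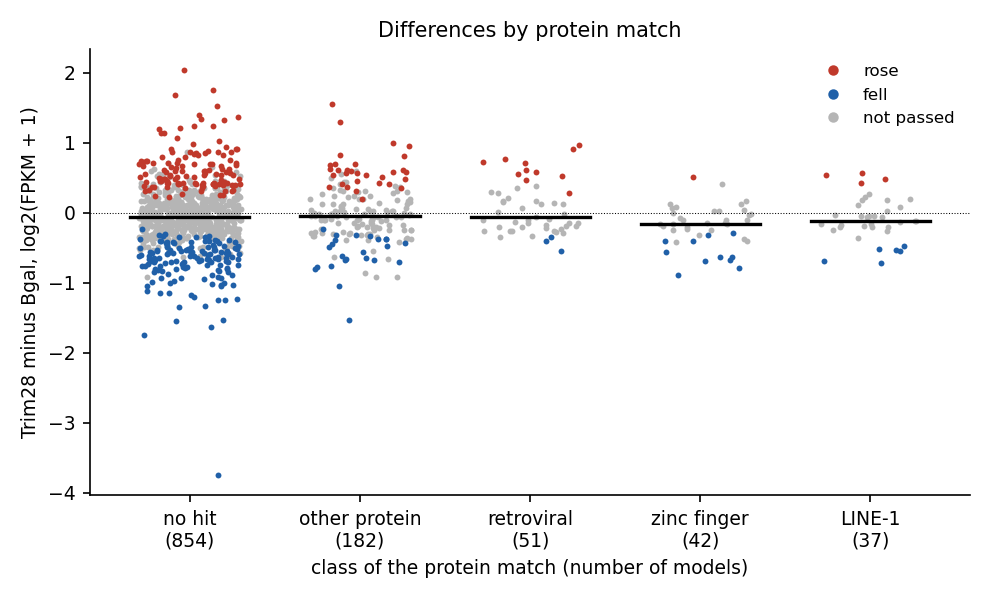
Difference between the groups in log2(FPKM + 1) (vertical axis) for each model, by class of its protein match (horizontal axis, number of models in brackets), with rises in red, falls in blue, models that did not pass in grey and a black bar at the median. The medians of all 5 classes lie between -0.16 and -0.04.

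Of the 4 models whose microRNA sequence is printed above, 1 passed. The model N744, before Mir23a on chromosome 19, had 0.651, 0.830 and 0.974 FPKM in Bgal and 2.70, 2.68 and 1.51 FPKM in Trim28. The groups did not overlap, and it rose by 0.84 on the log2 scale (adjusted p = 0.00735). The model N1153, before Mir34a, had 1.51, 1.52 and 1.81 FPKM against 1.52, 1.64 and 1.59 FPKM (adjusted p = 0.93). The model N1605, before Mir322 on chromosome X, had 0.868, 0.304 and 0.550 FPKM against 0.858, 0.792 and 0.812 FPKM (adjusted p = 0.271). The model N729, before Mir143, had 1.78, 1.84 and 1.79 FPKM against 2.60, 2.16 and 1.41 FPKM (adjusted p = 0.614). These 3 overlapped between the groups.

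The models that overlapped annotated genes or stood farthest from them were few. Among the 8 overlaps, N322 at Gramd1c, with 38037 and 40154 fragments, rose 1.26-fold (adjusted p = 0.00517), while the zinc finger model N1157 at Tipinl1 fell 1.67-fold (adjusted p = 0.00818). The other 6 (N1471, N1115, N1009, N1602, N1339 and N533) did not pass. The Gramd1c row spans 61605937 to 62634803 of chromosome 11. It was below the level limit, with a mean of 0.228 FPKM in Bgal and 0.392 FPKM in Trim28. On its 2 sides N322 had Mir568 and Zbtb20 as the nearest named genes, so its overlap does not place it in Gramd1c RNA. The model farthest from any annotated gene, N1568, stood 1114383 bases away on an unplaced sequence. It had 1.51, 0.970 and 1.26 FPKM in Bgal and 2.36, 2.20 and 2.60 FPKM in Trim28 and rose 1.91-fold (adjusted p = 0.00696). Of the next 4 by distance, N434 rose, with a LINE-1 match, and N777, N755 and N606 did not pass. The shortest model, N530, had 200 bases of exon and 15 and 4 fragments in the groups and did not pass. Nor did the model on chromosome Y, N1627 (adjusted p = 0.766).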

How the data were processed

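Poly(A) RNA of 6 libraries was measured. The deposited FPKM table, with its units per the file headers, gives 1 column per library, coordinates, exon length and a protein match per row. The authors' tools include HISAT2 2.0.5 and also DESeq2, which the submitters' processing notes list without roles. No source used here names the counting tool, its strand setting, the build or the annotation. No column of another sample was present (0). FPKM times length gave whole fragments for 100% of values within 0.01, which yields the depth.

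The level limit of 0.5 FPKM in 3 or more libraries left the rows tested, by limma 3.58.1 (R 4.3.3, intensity trend, two-sided) on log2(FPKM + 1), computed here from the deposited values, so fold changes of low rows are understated on that scale. Folds named as such are ratios of mean FPKM. Adjusted p-values are Benjamini-Hochberg over all 14808 rows, with a threshold of 0.05. Errors on log2 differences are standard errors with 3 libraries a group. Distances were taken in Python 3.11.15 from the deposited coordinates. Alternatives were a pseudocount of 0.1, no filter, a filter of 1 FPKM, limma-voom on the recovered fragments (at least 10 in 3 libraries), no trend, median-ratio scaling, the replicate number as a block, and leaving out each library. The fit was tested on simulated data. A planned test of the summed level was not made, since a sum over chosen rows supports no p-value.

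The models and lists were chosen with earlier results of these data known. Named were Trim28, the 10 highest models, the 10 largest rises and falls among those that passed without overlap and reached 1 FPKM in the higher group, the nearest annotated gene of these, up to 15 protein matches, the 3 on each side of the limit, the longest, the shortest, the 5 farthest and any position or chromosome group of 5 or fewer. All others named, such as the retroelement, zinc finger, microRNA and head to head models, were chosen after their values were seen. Some protein matches of the rule are not described above. Of these N56 and N836 rose, and N771, N368, N584 and N1239 did not pass. The call for N56 was lost without Bgal replicate 1 or 3 or any Trim28 replicate. Of the highest models given above by identifier only, N944 rose, and N1342 and N373 did not pass.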

Additional observations from a re-analysis of the deposited data

How the results depend on the processing

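No model that passed changed direction while passing under any of the 13 alternatives, and 270 to 363 of the 363 calls were kept where tested (at 1 FPKM, 310 of the 310 still tested). The count of rises was 175, with 134 to 162 when 1 library was left out and 149 to 190 under the other settings, and the count of falls was 188, with 136 to 180 and 150 to 213. Of 131 named models that passed, 86 passed in every setting that tested them and 45 were lost in at least 1, among them 1 of the 20 largest changes. The replicate block gave 166 rises and 177 falls. Same-numbered libraries of the 2 groups had correlations of deviations of -0.016, 0.134 and 0.009, so the numbers were not taken as pairs. Head to head pairs that passed the same way numbered 30, with 23 to 31 when 1 library was left out and 26 to 34 otherwise, and at most 1 pair went opposite. The summed level was 410.9 FPKM higher in Trim28 (345.5 to 506.5 with 1 library left out), 80.1 FPKM higher without N494, an alternative added after seeing the data, and the median of log2(FPKM + 1) over models was lower in Trim28 (-0.068), since the sum follows a few abundant models. The share of models near an annotated gene was 53.1% at 5 kb, 31.9% at 1 kb and 64.2% at 10 kb. Models had a median of 82 fragments a library, which limits the difference that could be detected.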
